A study of Mus musculus with 4 samples.

Results

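The 10 genes described here encode antiviral effector proteins that cells make in response to interferon: Ifit1, Ifit2, Ifit3 and I830012O16Rik (an older name of Ifit3b), Ifitm1, Ifitm2, Ifitm3 and Ifitm6, Mx1, and Rsad2, the gene of viperin. They were taken by name from a table of 28074 gene symbols, in which all 10 were found. Interferon binding to its receptor activates a set of transcription factors that bind a short DNA element called the interferon-stimulated response element (ISRE) near the start of such genes. IFIT proteins bind viral RNA and block its translation, IFITM proteins sit in cell and endosome membranes and hinder the entry of viruses, MX1 is a dynamin-like GTPase that traps viral particles in the nucleus of mouse cells, and viperin is a radical enzyme that makes a chain-terminating nucleotide. Several Ifitm genes are also known to be active in blood progenitors and myeloid cells without interferon.

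RNA sequencing was done on leukaemic spleen cells that were treated for 3 days with 10 µg/ml R848 (2 samples) or with vehicle (control, 2 samples). R848, also called resiquimod, is a synthetic imidazoquinoline that activates Toll-like receptors 7 and 8, which sense RNA in endosomes, and the stated aim was to find genes and pathways that change with it. The cells came from 2 mice, named 4050 and 4182, with acute myeloid leukaemia of the genotype Dnmt3afl/fl,Flt3ITD/ITD,Mx1Cre, and cells of each mouse were split between both treatments. All 4 samples thus carry the same alleles, which the labels also give as heterozygous for Dnmt3a, a conflict that was not resolved. Mx1Cre places Cre recombinase under the interferon-inducible promoter of Mx1, so the Mx1 gene measured here is also the gene whose promoter drives the deletion in this model. All cells had recovered from freezing for 24 hours in culture, with serum at 20% and the cytokines SCF at 60 ng/ml and IL6 and IL3 at 20 ng/ml each. Values are FPKM (fragments per length of transcript and library size, as the authors name them), and differences are of log2(FPKM + 1), R848 minus control, which understates the change of genes with low values. Read depth is unknown because the table holds no counts.

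For a check of the labelled cell type, 11 myeloid and progenitor markers were listed, among them Mpo and Kit, and summed to 9350 and 7429 FPKM with R848, against 8741 and 7499 FPKM in control, with 0 called by limma and, at an unadjusted p under 0.05, 2 higher and 1 lower. Blocked by mouse, 2 were higher and 1 was lower, which are named after their values were seen. The monocyte marker genes Csf1r (log2 difference 0.67, blocked limma adjusted p = 0.0215) and Cd14 (0.87, 0.007) were higher. Cd34, a progenitor marker gene, was lower, with 12.1 and 17.4 FPKM with R848, against 26.6 and 39.9 FPKM in control (-1.11, blocked limma adjusted p = 0.00187). The part of these shifts in the levels of the 10 genes was not tested. Libraries had linear sums from 950530 to 962001. A minimum mean of 1 FPKM over the samples left 12612 genes. At an adjusted p below 0.05, limma called 185 of them higher and 48 lower. When the mouse was fitted as a block, 429 were higher and 240 lower.

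The ISRE core was searched for as GAAA, any 2 bases and GAAA again, on both strands, from 250 bases before to 50 after each RefSeq start site (GRCm38.p6). It was present near 6 of the 9 members that have such a window, Ifit1, Ifit3, I830012O16Rik, Ifitm2, Ifitm3 and Rsad2, and near 3.99% of all 27025 genes with a window. The stretches are shown because they hold the letters to which this element's factors are known to bind. They run 5′ to 3′ on the strand of the gene, with the core, or its reverse complement, in capitals.
Ifit1, chr19:34640765-34640833, plus strand: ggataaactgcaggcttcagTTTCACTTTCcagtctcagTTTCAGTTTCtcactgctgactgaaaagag
Ifit3, chr19:34583353-34583436, plus strand: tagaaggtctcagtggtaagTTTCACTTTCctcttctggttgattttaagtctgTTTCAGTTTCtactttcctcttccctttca
I830012O16Rik, chr19:34607749-34607832, plus strand: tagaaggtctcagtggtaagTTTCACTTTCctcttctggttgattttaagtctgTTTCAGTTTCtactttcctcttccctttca
Rsad2, chr12:26456543-26456592, minus strand: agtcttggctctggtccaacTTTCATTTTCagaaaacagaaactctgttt
Ifitm2, chr7:140955978-140956027, minus strand: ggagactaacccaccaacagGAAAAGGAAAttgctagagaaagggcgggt
Ifitm3, chr7:141010715-141010744, minus strand: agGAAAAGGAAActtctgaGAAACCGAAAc
Ifit1, Ifit3 and I830012O16Rik each hold 2 cores, with the same letters TTTCACTTTC and TTTCAGTTTC. The stretches of Ifit3 and I830012O16Rik are identical over 84 bases. The 2 cores of Ifitm3 lie just after the RefSeq start site, at bases 3 to 12 and 20 to 29. The windows of Ifit2 (2 start sites), Ifitm1 and Ifitm6 do not hold these letters, and no window was given for Mx1. A STAT site core, TTCNNNGAA, was present near Ifit2, Ifitm3 and Ifitm6, 3 of 9 members, and near 9.55% of all genes. In Ifitm3 it spans bases 14 to 22 and overlaps the second ISRE core. A match of letters is a description and no binding was measured.

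**Figure D1:**
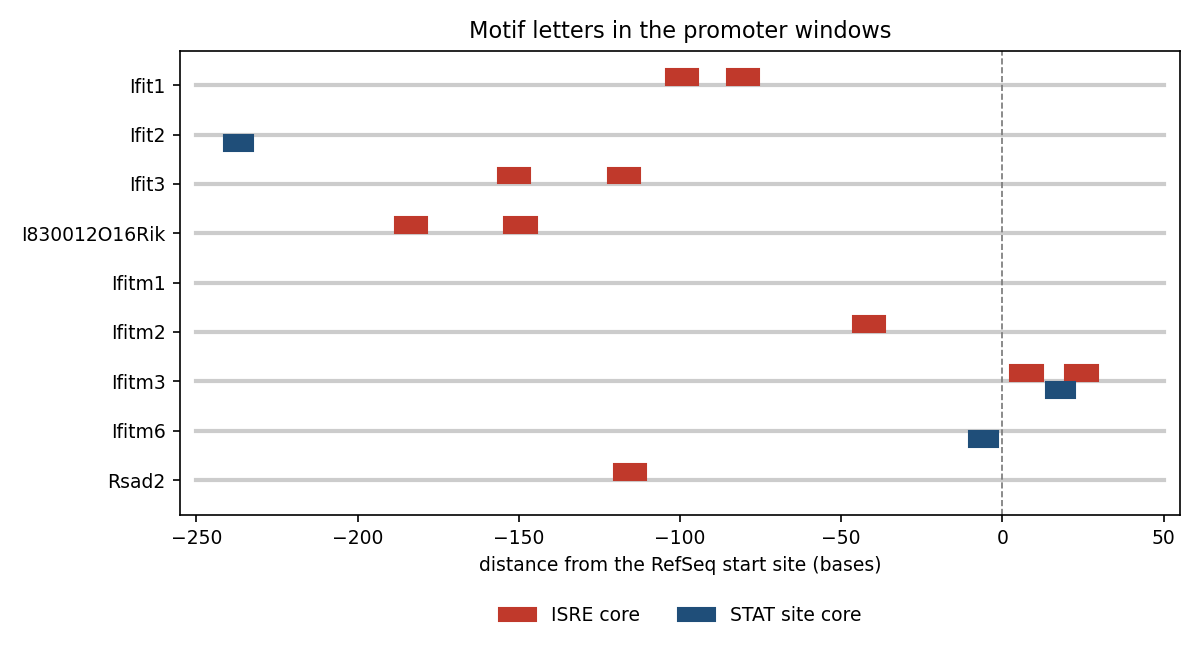
Positions of the ISRE core (red) and the STAT site core (blue), on either strand, from 250 bases before to 50 after the RefSeq start site (0, dashed) of the 9 members with a window. Ifit1, Ifit3, I830012O16Rik and Ifitm3 hold 2 ISRE cores each, and Ifit2, Ifitm1 and Ifitm6 hold none.

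With R848 all 10 genes were higher in both mice, and for each gene both R848 values lay above both control values. Of all tested genes, 22.1% were higher in both mice and 13.5% had both R848 values above both control values. The median difference of the 10 genes was 1.10 on the log2 scale, against -0.08 for all 12612 genes tested. Ifitm3 was the member called higher by limma, where 1.47% of all genes were called higher. A fit with the mouse as a block (replicate block) uses that each mouse gave cells to both groups, and in it 7 members were called higher: Ifit1, Ifit2, Ifit3, Ifitm2, Ifitm3, Ifitm6 and Rsad2. In that fit 3.4% of all genes were called higher. The block together with quantile normalization called 7 members (2.81% of all genes), and together with median log ratio scaling 8, with Mx1 added (3.2% of all genes). At an unadjusted limma p under 0.05, 8 of the 9 tested members were higher, against 5.2% of all genes. No member had a negative difference, so none was called lower, while 0.381% of all genes were called lower by limma and 1.9% with the block. The gene I830012O16Rik had a mean of 0.21 FPKM over the samples and was not tested, and Ifit1 and Ifit3 reached the minimum mean of 1 FPKM only through their R848 values.

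**Figure D2:**
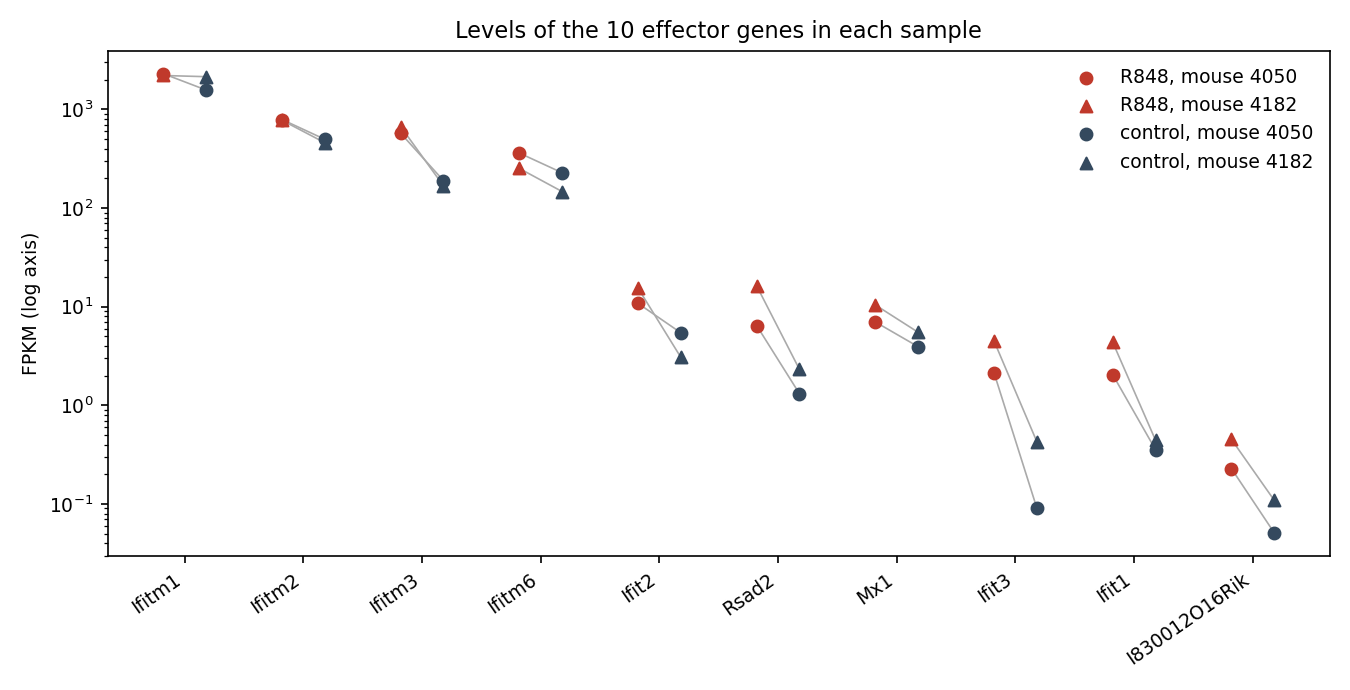
FPKM of the 10 genes (log axis) in each sample, R848 in red on the left and control in dark blue on the right of each pair, circles for mouse 4050 and triangles for mouse 4182, with grey lines joining samples of a mouse. Each R848 point lies above the control point of its mouse. Ifitm1 is highest, at 1574 FPKM or more, and I830012O16Rik lowest, at 0.451 FPKM or less.

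The 4 Ifitm genes were the abundant members. They lie together on chromosome 7 from 140954837 to 141017924 (GRCm38, GENCODE M21) and summed to 4028 and 3906 FPKM with R848 (mice 4050 and 4182), against 2490 and 2923 FPKM in control. That is 0.42% and 0.406% of all FPKM in the R848 samples, against 0.261% and 0.308% in the control samples.

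Ifitm3, which encodes the endosomal member that restricts influenza virus and is the best studied of the family, had 573 and 669 FPKM with R848, against 190 and 168 FPKM in control. The R848 samples were 3.02 and 3.99 times their own controls, and the groups were far apart, at 621 ± 67.6 FPKM with R848 and 179 ± 15.6 FPKM in control (SD, n = 2 each). The difference was 1.79 on the log2 scale (SE 0.16, 95% interval 1.41 to 2.17), with a limma adjusted p = 0.00368 and 1.4e-05 in the blocked fit. Among the 12612 genes it ranked 29 by p and 132 by size of the rise. Without the R848 sample of mouse 4182 the adjusted p was 0.0556 by limma, with a difference of 1.68, and over the 4 samples left out in turn it ranged from 5.0e-04 to 0.0556. Testing genes of any level raised it to 0.148.

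Ifitm2, whose protein also sits in internal membranes, had 790 and 776 FPKM with R848, against 498 and 460 FPKM in control. The samples of a group lay close together and the groups were well apart. The difference was 0.71 (SE 0.15, limma adjusted p = 0.0796, and adjusted p = 0.0135 with the mouse as a block). Ifitm6, which lies next to Ifitm3, had 361 and 252 FPKM with R848, against 228 and 147 FPKM in control. Both of its values for mouse 4050 were above those of mouse 4182 in the same group, and each R848 sample was 1.58 and 1.71 times its own control. The difference was 0.72 (SE 0.26, limma adjusted p = 0.326, and adjusted p = 0.0111 with the mouse as a block).

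Ifitm1, which encodes the member found mainly at the cell surface, was the most abundant of the 10 genes in all 4 samples, with 2303 and 2209 FPKM with R848, against 1574 and 2148 FPKM in control. In mouse 4182 the values of both treatments differed by 0.04 on the log2 scale and in mouse 4050 by 0.55. The difference of 0.29 did not pass limma in either fit (95% interval -0.17 to 0.75, adjusted p = 0.646, and adjusted p = 0.499 with the mouse as a block). Its interval excludes a rise as large as that of Ifitm3.

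The shares of the 4 genes among the Ifitm transcripts also lay apart between the groups for Ifitm3 and Ifitm1. Ifitm3 gave 14.2% and 17.1% of the summed Ifitm FPKM with R848, against 7.62% and 5.74% in control, and Ifitm1 gave 57.2% and 56.6%, against 63.2% and 73.5%. The ratio of Ifitm3 to Ifitm1 was 0.249 and 0.303 with R848, against 0.121 and 0.0781 in control, a difference of 1.50 on the log2 scale. An exact two-sided permutation test of that ratio gave p = 0.333, the smallest p that 2 samples against 2 allow. In control, Ifitm3 and Ifitm6 overlapped in level, whereas with R848 both Ifitm3 values were above both Ifitm6 values.

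**Figure D3:**
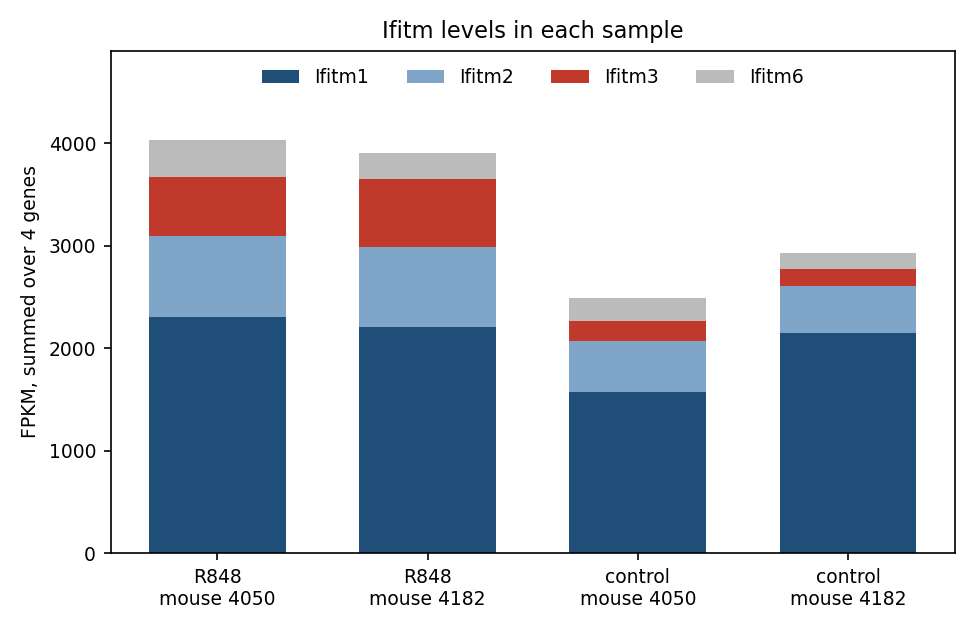
FPKM of Ifitm1, Ifitm2, Ifitm3 and Ifitm6, stacked, in the 2 R848 samples (left) and the 2 control samples (right). The Ifitm3 block is 573 and 669 FPKM high with R848, against 190 and 168 FPKM in control, while the Ifitm1 blocks differ little in mouse 4182.

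The Ifit genes were low in abundance. Ifit1, Ifit3 and I830012O16Rik had larger ratios of R848 to control than the Ifitm genes in both mice. Ifit2 did so only in mouse 4182 (5.02, against 1.99 in mouse 4050). The Ifit genes lie together on chromosome 19 from 34550694 to 34650009 and summed to 15.2 and 24.7 FPKM with R848, against 5.93 and 4.05 FPKM in control. Ifit2, whose protein forms complexes with other IFIT proteins, was the most abundant of them, with 10.8 and 15.4 FPKM with R848, against 5.44 and 3.07 FPKM in control. Mouse 4182 had the higher R848 value and the lower control value. The difference was 1.44 (SE 0.28, limma adjusted p = 0.0611, and adjusted p = 0.00562 with the mouse as a block), with 0.88 in mouse 4050 and 2.01 in mouse 4182. Ifit2 passed limma when the mouse 4050 control was left out (1.78, adjusted p = 0.00916) and not when any other sample was, with a highest adjusted p of 0.442 (difference 1.21) when the mouse 4182 R848 sample was.

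Ifit1, which encodes the protein that binds viral RNA lacking the host cap methylation, had 2.04 and 4.34 FPKM with R848, against 0.355 and 0.443 FPKM in control. Both controls lay below 1 FPKM, and the R848 samples were 5.74 and 9.79 times their own controls. The difference was 1.53 (SE 0.32, limma adjusted p = 0.0737, and adjusted p = 0.00445 with the mouse as a block). Ifit3, whose protein stabilises IFIT1 in human cells, had 2.12 and 4.47 FPKM with R848, against 0.0908 and 0.428 FPKM in control. The control values differed between the mice by more than the R848 values did in ratio. The difference was 1.73 (SE 0.33, limma adjusted p = 0.0561, and adjusted p = 0.00124 with the mouse as a block), and Ifit3 passed limma when either control was left out (mouse 4050, 1.53, adjusted p = 0.0478, and mouse 4182, 1.92, adjusted p = 0.0174). It did not when either R848 sample was (mouse 4050, 2.13, limma adjusted p = 0.0827, and mouse 4182, 1.32, 0.374).

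I830012O16Rik, the near copy of Ifit3, was at 0.228 and 0.451 FPKM with R848, against 0.051 and 0.109 FPKM in control. Of the distinct words of 31 bases in the GENCODE M21 transcripts of Ifit3, 61.8% also occur in those of this copy, and 54.1% the other way, so the split of fragments between the pair is uncertain. Summed, the pair had 2.35 and 4.92 FPKM with R848, against 0.142 and 0.536 FPKM in control, a difference of 1.75 with a limma adjusted p = 0.0556. Ifit2 shares no such word with the other Ifit genes, and Ifit1 shares 9.62% of its words with them.

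Rsad2, the gene of viperin (chromosome 12, 26442746 to 26456452), had 6.41 and 16.2 FPKM with R848, against 1.31 and 2.31 FPKM in control. The groups did not overlap, at 11.3 ± 6.94 FPKM with R848 and 1.81 ± 0.71 FPKM in control (SD, n = 2 each). Mouse 4182 had the higher value in each group, and each R848 sample was 4.9 and 7.02 times its own control. Its difference of 2.03 was the largest of the 10 on this scale (SE 0.40, limma adjusted p = 0.0619, and adjusted p = 2.3e-04 with the mouse as a block). Rsad2 passed limma when the mouse 4182 control was left out (2.29, adjusted p = 0.0162) and not when any other sample was, with a highest adjusted p of 0.29 (difference 1.42) when the mouse 4182 R848 sample was.

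Mx1 (chromosome 16, 97447035 to 97462907) had 6.99 and 10.4 FPKM with R848, against 3.93 and 5.5 FPKM in control. The lower R848 value was above the higher control value, and each R848 sample was 1.78 and 1.88 times its own control. The difference was 0.75 (SE 0.26, 95% interval 0.15 to 1.35), with a limma adjusted p = 0.287 and adjusted p = 0.0785 with the mouse as a block. The Mx1 gene was thus transcribed in the control samples too, as were Ifit2 and Rsad2, although no value here measures the Cre transgene.

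**Figure D4:**
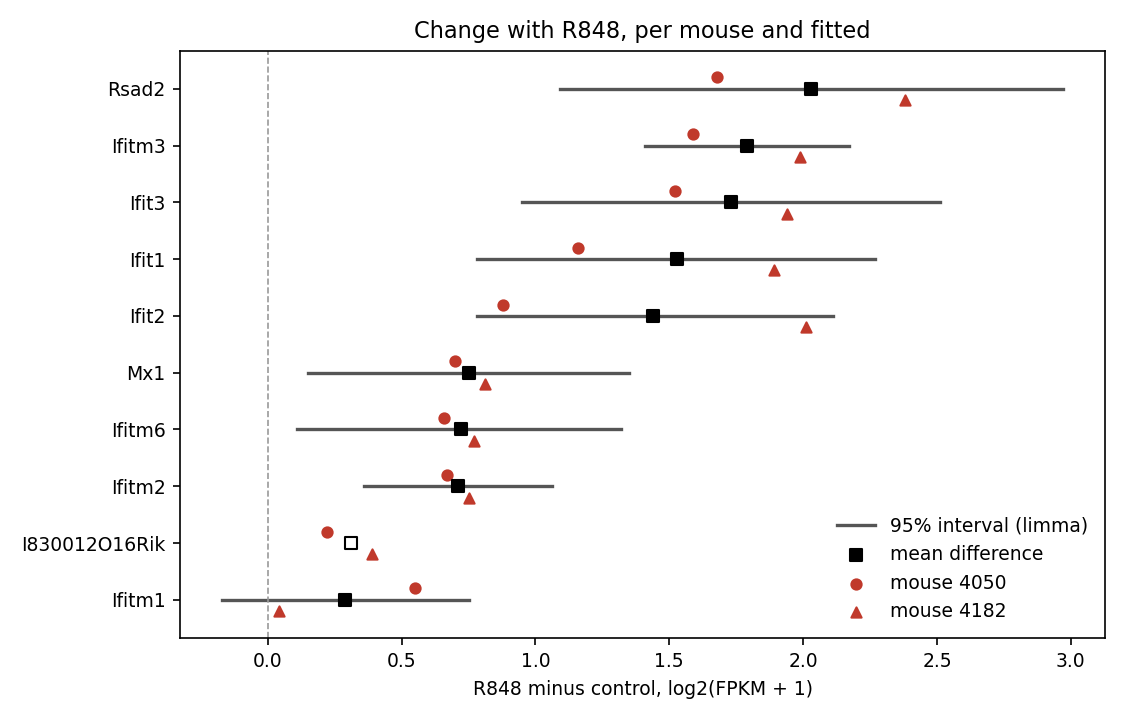
Differences of log2(FPKM + 1), R848 minus control, for each gene: squares are means over the mice with the 95% limma interval, red circles mouse 4050 and red triangles mouse 4182, and the open square is the untested I830012O16Rik. All points lie above 0, and the interval of Ifitm1 alone includes 0.

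The size of the difference varied with the mouse. On the scale of log2(FPKM + 1) it was larger in mouse 4182 for 9 of the 10 genes and larger in mouse 4050 for Ifitm1. The linear ratio of R848 to control was larger in mouse 4050 also for Ifit3 (23.3, against 10.4 in mouse 4182). The same held for I830012O16Rik (4.47, against 4.14), and both genes had control values below 1 FPKM. The median of the 10 was 0.79 in mouse 4050 and 1.35 in mouse 4182, while the median of all tested genes was 0.00 and -0.16. With 1 sample per mouse and treatment, the variation between mice was not tested. Ifit3, Ifit1, Rsad2 and Ifitm3 had differences above 1 in log2(FPKM + 1) in both mice. That scale understates fold changes at low FPKM, so I830012O16Rik stayed below 1 (0.22 and 0.39) despite the ratios just given. The share of all tested genes past 1 in both mice was not computed.

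Among relatives and neighbours of the 10 genes, values were uneven. Gm14446 (now Ifit1bl1), an Ifit1-like gene that lies between Ifit3 and I830012O16Rik, had 4.11 and 5.96 FPKM with R848, against 0.0395 and 0.0956 FPKM in control, and rose by 2.48 on the log2 scale (limma adjusted p = 0.00586, and 0.083 without the R848 sample of mouse 4182). With R848 it was above Ifit1 in both mice, while in control it was below Ifit1 in both. The next Ifit1-like gene, 2010002M12Rik (now Ifit1bl2), had 1.39 and 1.06 FPKM with R848, against 1.69 and 0.897 FPKM in control, a difference of -0.02 (95% interval -0.67 to 0.62, limma adjusted p = 0.988) whose sign changed under the rescalings. Its start lies head to head with that of Ifit1, so that the stretch printed for Ifit1 with its 2 cores is also in the window of 2010002M12Rik. Gm14446 has 2 windows, and each holds 1 ISRE core, TTTCATTTTC.

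Cmpk2, a nucleotide kinase gene 12.8 kb from Rsad2 that is read in the opposite direction, had 21.5 and 32.1 FPKM with R848, against 8.41 and 6.41 FPKM in control, and rose by 1.71 on the log2 scale (limma adjusted p = 0.02). It lost the call under quantile normalization (limma adjusted p = 0.086) and median log ratio scaling (adjusted p = 0.0713). The call was also lost without either R848 sample (difference 1.99 without that of mouse 4050 and 1.43 without that of mouse 4182). With the mouse as a block Cmpk2 passed (limma adjusted p = 5.3e-04), also with quantile normalization (0.011) and median log ratio scaling (0.00748). Rnf144a, a ubiquitin ligase gene on the other side of Rsad2, had a difference of 0.14 (limma adjusted p = 0.868). Fam3b, 8.06 kb from Mx1, had 1.34 and 3.06 FPKM with R848, against 0.224 and 0.268 FPKM in control, a difference of 1.31 (limma adjusted p = 0.121, and adjusted p = 0.0148 with the mouse as a block, or 0.0824 with the block and quantile normalization). Mx2, the paralog of Mx1, was not tested, at 0.367 and 0.838 FPKM with R848, against 0.0704 and 0.233 FPKM in control.

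The other neighbours and relatives did not pass limma. Lipa, a lysosomal lipase gene 23.2 kb from Ifit2, had 39.8 and 41.9 FPKM with R848, against 45 and 37.5 FPKM in control. Pank1, on the far side of Ifit1, had a difference of 0.23 (95% interval -0.25 to 0.72). Ifitm5, known as a bone-restricted member, had 2.91 and 2.26 FPKM with R848, against 2.39 and 2.22 FPKM in control. Ifitm10 had 1.17 and 0.777 FPKM with R848, against 1.44 and 1.23 FPKM in control, and Ifitm7, which was not tested, 1.06 and 0.675 FPKM against 0.726 and 1.32 FPKM. Gm17387, on the other side of the Ifitm genes, was listed at 0 in all samples but 1 control. Itgb2l, 1003 kb from Mx1, had a difference of -0.60 (limma adjusted p = 0.611).

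The upstream part of the pathway was measured on lists of genes. Of 19 interferon ligand genes 13 were matched, of which 7 were listed at 0 in all samples. Ifnb1 was at 0.0509 FPKM in the R848 sample of mouse 4182 and listed at 0 in the others. Ifng, the gene of interferon gamma, had 4.39 and 15.8 FPKM with R848, against 0 and 0.0364 FPKM in control. It was the only ligand tested, as the other matched ligands were below the minimum mean, and it rose (log2 difference 3.22, limma adjusted p = 0.0225). Without the R848 sample of mouse 4182 it did not pass, with a difference of 2.40. Nor did it pass limma under quantile normalization (adjusted p = 0.113) or median log ratio scaling (adjusted p = 0.0957). With the mouse as a block Ifng passed (limma adjusted p = 6.3e-05), also with quantile normalization (0.00436) and median log ratio scaling (0.00344). These are levels at 3 days, and earlier times were not analysed here.

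Of 21 genes of interferon receptors and signal transducers, 5 rose and 0 fell by limma (6 and 0 in the blocked fit), with a median of 0.17. Irf1, a transcription factor gene known to respond to interferon gamma, had 216 and 285 FPKM with R848, against 58.9 and 57.7 FPKM in control (2.07, limma adjusted p = 0.00351). The lowest were the receptor genes Ifnlr1 and Ifngr1, with values of -0.18 and -0.17 that did not pass.

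Of 38 other antiviral effectors 35 were tested, of which 19 rose and 0 fell by limma, or 27 and 0 when blocked by mouse, and the median over the 38 was 1.21. The highest were Oasl2, an oligoadenylate synthetase-like gene, and Rtp4, with 15.8 and 28.8 FPKM and 8.97 and 17.9 FPKM with R848, against 0.879 and 1.76 FPKM and 0.614 and 1.11 FPKM in control. Both rose by limma (adjusted p = 0.00446 and 0.00843). Neither passed without the R848 sample of mouse 4182 (difference 2.88 for Oasl2 and 2.43 for Rtp4). Rtp4 also did not pass under quantile normalization (limma adjusted p = 0.0562). With the mouse as a block both passed (limma adjusted p = 1.3e-06 and 1.0e-05), Rtp4 also with quantile normalization (0.00108). Trim25, a ubiquitin ligase gene of RNA sensing, was among the low ones, at -0.18 (limma adjusted p = 0.811). The median of the 10 genes, 1.10, lay close to that of this list, and no test of the 2 lists against each other was made.

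**Figure D5:**
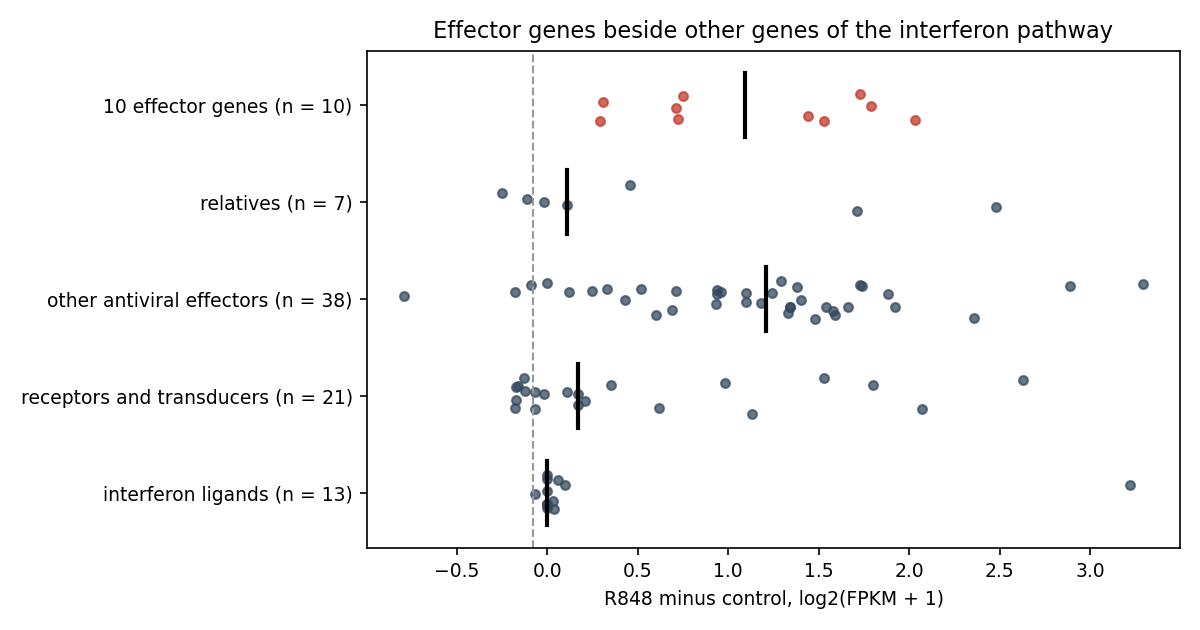
Differences of log2(FPKM + 1), R848 minus control, for the 10 genes (red) and for listed relatives, other antiviral effectors, receptors and transducers, and ligands (dark blue), each point 1 gene and each black bar the median of its row. The dashed line is the median of all tested genes, -0.08, and the single ligand far from 0 is Ifng.

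The labels name no sort of the cells, so lists of markers of further cell types were summed. In bulk samples, fewer cells of a type and less RNA per cell cannot be told apart. The 7 B cell markers summed to 42.5 and 44 FPKM with R848, against 14.9 and 16.7 FPKM in control, with 3 of 5 tested members called higher by limma. The 8 plasma cell markers summed to 1340 and 1172 FPKM with R848, against 538 and 688 FPKM in control, with 4 of 8 called higher. The 8 T cell markers summed to 11.2 and 15.2 FPKM with R848, against 4.16 and 5.61 FPKM in control, with 2 of 5 tested members called higher. The 8 NK cell markers summed to 240 and 240 FPKM with R848, against 150 and 259 FPKM in control, with 0 of 3 called by limma and 0 at an unadjusted p under 0.05. The 7 plasmacytoid dendritic cell markers summed to 15.3 and 18.6 FPKM with R848, against 19 and 35.1 FPKM in control, with 1 of 3 tested members called higher by limma, and 1 higher and 1 lower in the blocked fit. Erythroid markers (5 matched) summed to 1.82 and 1.55 FPKM with R848, against 2.56 and 3.87 FPKM in control, and the 6 stromal and endothelial markers to 138 and 112 FPKM, against 115 and 122 FPKM. Some of these sums were mostly 1 gene. Nkg7 of the NK cell list had 193 and 197 FPKM with R848, against 126 and 201 FPKM in control. Ncr1, Klrb1c and Eomes of that list were at 0.185 FPKM or less. Pecam1 of the stromal and endothelial list had 137 and 112 FPKM with R848, against 115 and 122 FPKM in control. Xbp1 gave 599 and 543 FPKM of the plasma cell sums with R848, against 515 and 667 FPKM in control. Most of the rise of those sums was Igkc, an immunoglobulin chain gene, with 601 and 507 FPKM against 4.9 and 2.74 FPKM. No listed marker that was matched was at 0 in all samples. The part of these cells in the levels of the 10 genes was not tested.

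Tested genes other than the members, without predicted or clone names, were searched for likeness to 3 of the members. The genes most like these over the 4 samples were named by the Euclidean distance between mean-centred log2 values. For Ifit1 they were Irf7, Xcl1 and Kalrn, at distances of 0.0684, 0.117 and 0.145. Irf7, a transcription factor gene of the interferon response, had 19.8 and 36.2 FPKM with R848, against 8.61 and 8.6 FPKM in control. For Rsad2 they were Gbp7, Tnp2 and Ccl5, at 0.276, 0.318 and 0.326, so that none of the genes searched lay as near to Rsad2. For Ifitm3 they were Mmp2, Ifi47 and Vcam1, at 0.12, 0.173 and 0.18. Vcam1, an adhesion molecule gene, had 26.3 and 35.1 FPKM with R848, against 8.72 and 8.48 FPKM in control. With 4 samples in 2 groups, these distances mostly reflect the difference between the groups.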

How the data were processed

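RNA of 4 samples (R848 and control, 2 mice) was sequenced as paired reads of 150 nucleotides from RNA with an integrity number above 8.0, per the labels' protocols, which name both ribosomal depletion and a stranded mRNA kit. kallisto and mm10 (GRCm38) were used, per the submitters' processing notes, while the annotation and the versions are not stated here by any source. Values in the file that the authors deposited are log2 values named FPKM. Their lowest value is 0, and undoing log2(value + 1) gave nearly equal sums from 950530 to 962001 per sample, much as TPM would.

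Of 28192 rows, 27 with date names and 91 repeats of 90 symbols (the highest mean kept) were dropped. Genes averaging 1 FPKM or more were compared in R 4.3.3 by limma 3.58.1, two-sided, on log2(FPKM + 1), using a trended prior and Benjamini-Hochberg adjustment over 12612 genes at 0.05. Per the labels, the mouse number marks 1 animal, which pairs the samples. Their deviations from the group means correlated at 0.289 across genes. The fit without the block was taken as the main one.

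Both fits were tested on simulated data that held no mouse effect and had changes only in genes of higher level. Use of the pairing and changes in genes of low level were thus not checked. The members and lists were chosen with earlier results of these data known. Named genes were the members, their relatives, the nearest tested neighbours, the genes most like 3 members, and the 2 highest and 2 lowest of each pathway list (Ifng being the tested ligand), of which some are not reported here. Marker lists are given as counts and sums, and the single markers given with values were named after those values were seen. Alternatives were another pseudocount (0.1), no filter, a minimum of 5 FPKM, median log ratio scaling, quantile normalization, the block (alone or with either scaling), a constant prior and leaving out each sample. Leaving out immunoglobulin and T cell receptor rows and summing Ifit3 with its copy were added after seeing the data. Python 3.11.15 and matplotlib 3.10.9 drew the figures.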

Additional observations from a re-analysis of the deposited data

How the results depend on the processing

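The 10 genes had a positive difference under the alternatives tried (lowest 0.03 with quantile normalization, for the untested I830012O16Rik, and 0.07 without the mouse 4050 control, for Ifitm1), with a median from 1.03 to 1.45, and no member was called lower. How many were called depended on the fit. It was 1 by limma, 3 with a minimum of 5 FPKM (of 7 tested), 7 with the replicate block, 7 with the block and quantile normalization, 8 with the block and median log ratio scaling (Mx1 joining at adjusted p = 0.0499), 2 without immunoglobulin and T cell receptor rows, and from 0 to 4 with each sample left out. With no filter it was 0, with 7 at an unadjusted p under 0.05 by limma.

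Over all genes, 185 were called higher and 48 lower, against 76 and 12 with quantile normalization, 91 and 15 with median log ratio scaling, 429 and 240 with the replicate block, 354 and 136 with the block and quantile normalization, and 404 and 145 with the block and median log ratio scaling. A minimum of 5 FPKM gave 177 and 54 of 9509 genes. Leaving out immunoglobulin and T cell receptor rows gave 178 and 54 of 12570 genes. With no filter limma called 0 and 0 of 21710 genes, with 881 and 999 at an unadjusted p under 0.05. Leaving out each sample gave from 46 to 259 higher and from 10 to 136 lower. The cause was not tested.

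Differences near 0 changed sign. 2010002M12Rik went to 0.03 with quantile normalization and 0.05 with median log ratio scaling, with or without the block, and Lipa to 0.00 and 0.06. Over the samples left out in turn, the differences ranged from -0.27 to 0.23 for 2010002M12Rik, from -0.14 to 0.12 for Lipa, from -0.02 to 0.24 for Ifitm5, from -0.67 to 0.31 for Ifnlr1, from -1.21 to 0.01 for Itgb2l, from -0.08 to 0.36 for Rnf144a and from -0.38 to 0.01 for Trim25. With 2 samples a group, limma borrows most of its estimate of spread from other genes, and the unknown depth limits what the values below 1 FPKM can show.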
